A study of Mus musculus with 24 samples.

Results

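The comparison described here asks how the effect of diethylhexylphthalate (DEHP) on liver messenger RNA differed between 8 h and 24 h, and which of the groups behind it moved. The measure is an interaction: DEHP minus corn oil at 24 h, minus the same difference at 8 h, in log2 units. It uses the 12 arrays of 8 h and 24 h, 3 in each of 4 groups, out of 24 arrays of the study, and was computed for all 18194 genes, each represented by 1 probe set of an Affymetrix mouse array. A positive interaction means that the effect was higher at 24 h than at 8 h, and a negative one that it was lower. All groups were livers of male B6C3F1 mice, bought at 7 to 10 weeks of age and kept for at least 5 days before dosing. The mice received DEHP at 1150 mg/kg, or the corn oil vehicle alone, by oral gavage at 10 ml/kg every 24 h for up to 3 days. Further arrays at 2 h and 72 h, again 3 per group, entered the model and are used below as values from outside the contrast. The labels do not say how many doses came before the 24 h sample or at what clock time livers were taken. They name 6 mice without linking them to the arrays, so p-values measure the spread between these samples, which may be technical. Liver is a mixture of cells, and in whole tissue fewer cells of a type cannot be told apart from less RNA per cell.

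DEHP is a plasticiser whose metabolites activate PPARα, a nuclear receptor that pairs with RXR on DNA and switches on fatty acid oxidation in liver. Its known targets include enzymes of peroxisomal and mitochondrial oxidation, the cytochrome P450 enzymes that omega-hydroxylate fatty acids, and Pdk4, a kinase that shuts off pyruvate oxidation. High doses also activate CAR, a second nuclear receptor known for inducing drug-metabolising enzymes such as Cyp2b10. Liver transcripts in addition follow a daily rhythm and respond to feeding, so a vehicle group at each time is needed to read an effect of the compound.

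The arrays carried liver RNA: Alb, Apoa1 and Ttr lay between 14.12 and 14.50 log2 units in all 12 arrays, and each of 10 hepatocyte markers measured lay at or above the 97.9th percentile of genes. Array medians lay between 6.48 and 6.55, and any pair of arrays within a group had a correlation of at least 0.989 over probe sets, given only as a description. Corn oil 8 h replicate 2 stood apart. Its 3' minus 5' signal of Actb, which rises as RNA degrades, was 1.46 against 0.82 for the next of the 12 arrays, and its 18S ribosomal RNA signal was 11.70 against 8.88. Precision is limited by the number of arrays: the median SE of the interaction was 0.15, against 0.11 for the effect at a single time.

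The effect of DEHP differed between the times for 85 genes (0.467% of 18194; limma, adjusted p under 0.05), and it was nearly always the 8 h effect that was large. The interaction was positive for 52 of them (0.286%) and negative for 33 (0.181%). Without the correction for multiple tests 1683 genes had p under 0.05, 1272 of them positive. The median interaction of all genes was 0.02, the positive calls ranged from 0.47 to 2.67 and the negative ones from -4.98 to -0.61, and 12 positive and 19 negative calls passed 2-fold. At 8 h itself DEHP changed 752 genes (4.13%), of which 232 were raised (1.28%) and 520 lowered (2.86%). At 24 h it changed 54 genes (0.297%), of which 46 were raised (0.253%) and 8 lowered (0.044%). Single arrays and settings moved both counts. The 8 h count was 388 without replicate 3 of DEHP, 450 without replicate 2 of corn oil and 463 without replicate 1 of DEHP (all at 8 h), and 327 with the Actb difference as a covariate. The 24 h count was 27 without replicate 2 of DEHP, 33 without replicate 1 of corn oil, 35 without replicate 3 of DEHP and 97 without replicate 2 of corn oil (all at 24 h), and 30 when the 12 arrays were fitted alone. Of the 85 genes, 83 were called at 8 h and 2 at 24 h. These counts describe the interaction, which contains both effects, and are no separate evidence for it.

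**Figure D1:**
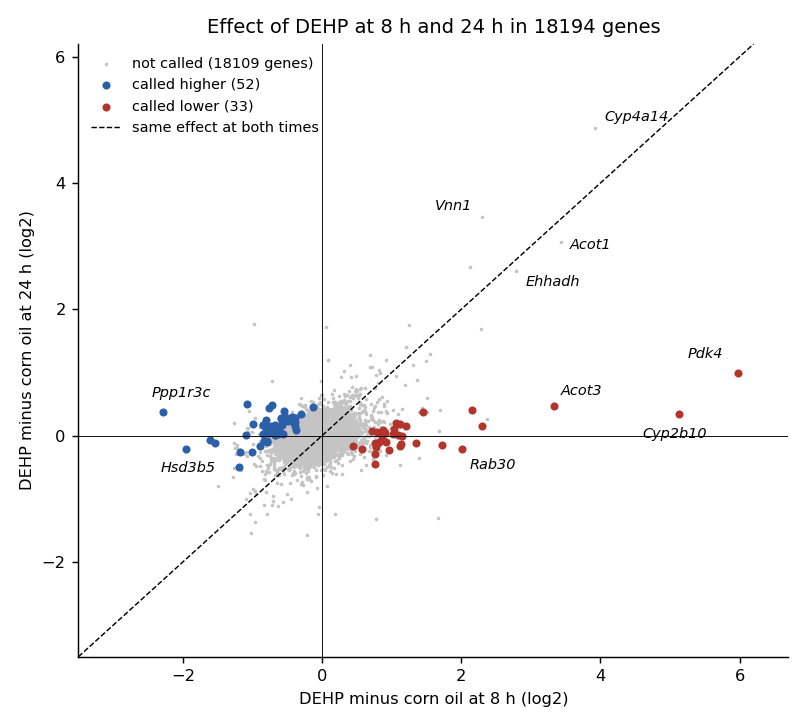
Effect of DEHP (DEHP minus corn oil, log2) at 8 h on the horizontal axis and at 24 h on the vertical axis, 1 point per gene; red and blue points are the 33 genes called lower and the 52 called higher in the interaction, and the dashed line marks equal effects. Called genes lie close to the horizontal line of no effect at 24 h, while Cyp4a14, Vnn1, Acot1 and Ehhadh lie near the dashed line.

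The count depended on single arrays. Among the 8 h arrays, it was 54 when replicate 2 of corn oil was left out, 50 for replicate 1 of DEHP and 48 for replicate 3 of DEHP. Among the 24 h arrays, it was 42 when replicate 1 of corn oil was left out, 45 for replicate 1 of DEHP and 51 for replicate 2 of DEHP. When replicate 3 of corn oil at 24 h was left out, the positive calls numbered 83. All 85 genes kept their sign in each of the 12 fits that left out 1 array, and 34 of them (17 positive and 17 negative) passed the threshold in every one.

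Which group moved was read in a pair of ways. By the tests of 24 h against 8 h within each treatment, only the DEHP groups differed for 55 of the 85 genes, only the corn oil groups for 12, both for 14 and neither for 4. Without replicate 2 of corn oil at 8 h these counts were 39, 4, 9 and 2 of 54 called genes. Over all genes, 1010 (5.55%) differed between the DEHP groups, 522 higher (2.87%) and 488 lower (2.68%) at 24 h. Between the corn oil groups 468 (2.57%) differed, 142 higher (0.78%) and 326 lower (1.79%). By the 4 group means, the DEHP 8 h group stood apart for 57 genes, meaning that its distance to the nearest of the other means was larger than the range of those 3 means. The corn oil 8 h group stood apart for 12, the corn oil 24 h group for 1 (Haus4), the DEHP 24 h group for 0, and no single group for 15. Over all genes the shares were 14.5% for DEHP 8 h, 13.9% for corn oil 8 h, 10.2% for corn oil 24 h and 13.2% for DEHP 24 h. A gene with 1 group apart has an interaction by construction, so the shares are a description. Without corn oil 8 h replicate 2, DEHP 8 h stood apart for 40 of 54 called genes, corn oil 8 h for 6, and DEHP 24 h for 0.

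**Figure D2:**
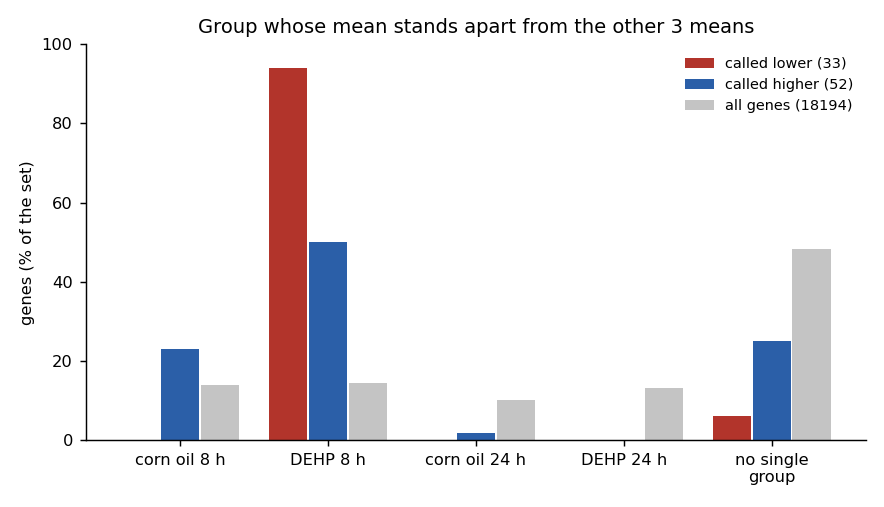
Share of genes (% of each set, bars from 0) by the group whose mean stands apart from the other 3 means, for the 33 genes called lower, the 52 called higher and all 18194 genes. DEHP 8 h holds 31 of the 33 and 26 of the 52, and DEHP 24 h holds none of either set.

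The genes with a negative interaction were raised by DEHP at 8 h, and at 24 h none of them passed the test. All 33 were called higher at 8 h (1.28% of all genes), which their choice by a negative interaction favours. The median effect was 1.04 at 8 h and 0.00 at 24 h, where 17 effects were positive and 16 negative. At 24 h 0 of the 33 and 0.297% of all genes were called, so the 0 does not set them apart. The DEHP group was called lower at 24 h than at 8 h in all 33 (2.68% of all genes). The corn oil group was called lower in 5 of them (1.79% of all genes): Acot3, Fitm2, Nceh1, Pnpla2 and Rab30. By the means, the corn oil difference was negative in 21 of the 33 and positive in 12. Over all genes it was positive in 7369 of 18194. The DEHP and corn oil arrays did not overlap at 8 h in all 33 (18.6% of all genes), and at 24 h in 6 (13.8% of all genes).

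Pdk4 had the largest interaction. Its log2 signal in corn oil was 6.47, 5.12 and 5.54 at 8 h and 6.68, 7.03 and 6.29 at 24 h, and in DEHP it was 11.87, 11.92 and 11.26 at 8 h and 7.72, 7.68 and 7.59 at 24 h. The DEHP arrays were far above corn oil at 8 h and still above, without overlap, at 24 h. The effect went from 5.97 (62.8-fold) at 8 h to 1.00 at 24 h, which did not pass the test (adjusted p = 0.21), and the interaction was -4.98 ± 0.39 (SE; 95% confidence interval -5.78 to -4.17, adjusted p = 1.59e-07). Corn oil differed by 0.95 between the times (adjusted p = 0.065), so the DEHP group carried most of the move, at -4.02. None of the other 8 genes of the list of pyruvate dehydrogenase kinases, their phosphatases and the complex's subunits was called. Over all genes 0.467% were called, so this does not set those 8 apart.

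Drug metabolism genes of CAR and its relative PXR were also among the calls. Of 21 on the list, 3 were called lower and 0 higher (0.181% and 0.286% of all genes). The list's median interaction was -0.22 against 0.02 for all genes. Cyp2b10, a cytochrome P450 that metabolises drugs, had signals of 6.59, 6.64 and 6.44 in corn oil and 12.07, 12.11 and 10.86 in DEHP at 8 h, against 6.85, 6.86 and 6.72 in corn oil and 6.82, 7.31 and 7.31 in DEHP at 24 h. The groups were separate at 8 h and overlapped at 24 h. Its effect went from 5.13 (34.9-fold) to 0.34, an interaction of -4.79 ± 0.41 (adjusted p = 6.7e-07), and corn oil differed by 0.25 between the times (adjusted p = 0.83). Its probe set can also detect close relatives of the Cyp2b family, and the 3 probe sets named for the gene ranged from -4.79 to -3.67. Gadd45b, a stress-inducible gene that also responds to CAR, had an interaction of -2.14 ± 0.45 (adjusted p = 0.028) and Cyp3a25, another cytochrome P450, one of -0.61 ± 0.13 (adjusted p = 0.031). The 3 probe sets of Gadd45b ranged from -2.40 to -0.53. Both of these calls held in 5 of 12 fits without 1 array, with adjusted p of up to 0.109 and 0.102. Of the 21, 5 were raised at 8 h (1.28% of all genes were) and 0 were called at 24 h, where 0.297% of all genes were called, so the 0 does not set the list apart.

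Among 24 genes of peroxisomal fatty acid oxidation 2 were called lower, both thioesterases, and 0 higher (0.181% and 0.286% of all genes). The median was -0.03. Of the 24, 9 were raised at 8 h and 5 at 24 h, against 1.28% and 0.253% of all genes. Acot3, which splits long-chain acyl-CoA in peroxisomes, had signals of 7.72, 8.16 and 9.84 in corn oil and 12.24, 11.61 and 11.85 in DEHP at 8 h, and 7.16, 7.09 and 6.99 in corn oil and 7.31, 8.22 and 7.11 in DEHP at 24 h. Corn oil replicate 3 was the highest of the vehicle arrays at 8 h, and the groups did not overlap at 8 h but did at 24 h. The effect went from 3.33 to 0.47, an interaction of -2.86 ± 0.49 (adjusted p = 0.00628), while corn oil itself fell by 1.5 on the log2 scale. Acot4, which acts on dicarboxylic acyl-CoA, had an interaction of -1.74 ± 0.30 (adjusted p = 0.00611), with an effect of 2.15 at 8 h and 0.41 at 24 h. Acot genes lie beside close copies of each other, so their probe sets may share signal.

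For the pathways whose called members moved together, the RefSeq promoters (GRCm38.p6, from 250 bases before to 50 bases after the annotated start) are shown to let the sequence be read beside the values. Capitals mark matches to any of 5 motifs searched on both strands: the heat shock element core GAANNTTC, the E-box CACGTG that clock proteins and Myc relatives bind, the D-box TTATGTAA, the cAMP response element TGACGTCA and the direct repeat that PPAR and RXR bind, a pair of AGGTCA copies with any base between them.
Acot3, chr12:84051894-84052193, plus strand: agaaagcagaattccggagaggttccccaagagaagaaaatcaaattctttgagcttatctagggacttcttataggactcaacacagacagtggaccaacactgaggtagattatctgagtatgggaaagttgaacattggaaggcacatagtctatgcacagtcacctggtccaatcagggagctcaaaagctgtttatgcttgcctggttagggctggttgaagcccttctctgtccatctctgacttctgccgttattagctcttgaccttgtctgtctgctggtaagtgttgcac
Acot4, chr12:84038129-84038428, plus strand: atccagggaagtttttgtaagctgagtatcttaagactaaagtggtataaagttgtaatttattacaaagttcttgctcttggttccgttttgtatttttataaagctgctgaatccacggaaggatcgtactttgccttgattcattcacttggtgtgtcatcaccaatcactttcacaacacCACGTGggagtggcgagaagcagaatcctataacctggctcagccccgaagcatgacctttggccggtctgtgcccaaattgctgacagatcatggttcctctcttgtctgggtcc
Cyp2b10, chr7:25897408-25897707, plus strand: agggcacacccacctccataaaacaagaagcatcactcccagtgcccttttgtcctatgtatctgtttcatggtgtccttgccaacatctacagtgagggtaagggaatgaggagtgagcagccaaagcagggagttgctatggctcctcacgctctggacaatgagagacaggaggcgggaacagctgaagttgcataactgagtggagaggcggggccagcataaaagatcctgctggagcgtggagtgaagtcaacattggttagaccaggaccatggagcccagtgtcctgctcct
Gadd45b, chr10:80929841-80930140, plus strand: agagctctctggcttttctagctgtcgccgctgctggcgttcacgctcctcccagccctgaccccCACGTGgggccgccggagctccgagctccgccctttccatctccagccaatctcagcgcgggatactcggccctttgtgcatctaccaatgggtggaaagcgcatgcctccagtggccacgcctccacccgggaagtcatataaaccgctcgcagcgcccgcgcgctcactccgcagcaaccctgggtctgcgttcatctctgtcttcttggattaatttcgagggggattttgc
The E-box letters begin 66 bases before the start of Acot4 and 185 bases before that of Gadd45b, and the windows of Acot3 and Cyp2b10 hold none of the 5 motifs. Of the called genes, 24 of 33 called lower and 46 of 52 called higher had a promoter in the table. The E-box was in 5 of the 24 called lower (20.8%) and 10 of 46 called higher (21.7%), against 7.11% of 26742 genes, each by its first promoter. For every motif these 26742 are all genes with a listed promoter, not only those measured on the array. The called genes are therefore set against an unlike set, and the difference was not tested. Genes with it included Lpin2, Nceh1 and Slc16a1 among those called lower and Ppp1r3c, Cited2 and Tubb5 among those called higher. The direct repeat was in 0 of both sets and in 13 of the 26742 genes (0.0486%), so the 0 does not set them apart. The heat shock core was in 1 of 24 and 4 of 46, against 8.01% of genes. The D-box and the cAMP response element were each in 0 of 24 and 1 of 46, against 0.957% and 1.79% of genes. A match is a description of letters in a window and was not tested for binding.

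Other genes with a negative interaction handle lipids, sugars on membranes, or transport. Rab30, a small GTPase of the Golgi, had signals of 7.53, 7.63 and 8.08 in corn oil and 9.85, 9.91 and 9.53 in DEHP at 8 h, and at 24 h 6.66, 6.78 and 6.45 in corn oil and 6.02, 6.48 and 6.76 in DEHP. Both treatments were lower at 24 h, DEHP more so, and the DEHP arrays then overlapped the corn oil arrays. Its interaction was -2.22 ± 0.36 (adjusted p = 0.00356). St3gal5, the synthase of the ganglioside GM3, had 10.37, 10.10 and 10.37 in corn oil and 12.08, 11.90 and 12.05 in DEHP at 8 h, and an interaction of -1.89 ± 0.26 (adjusted p = 0.000588). By 24 h its DEHP arrays lay at 9.61, 9.75 and 9.80, within the corn oil range of 9.23 to 10.26.

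Within lipid storage and synthesis the calls went both ways. Pnpla2, the main lipase of lipid droplets, had an interaction of -0.73 ± 0.10 (adjusted p = 0.000556): DEHP lay at 10.47, 10.51 and 10.40 against 9.64, 9.67 and 9.70 in corn oil at 8 h, and all 6 arrays lay between 9.12 and 9.29 at 24 h. Its 2 probe sets disagreed, at -0.73 and 0.02. Fitm2, which helps form droplets, had an interaction of -0.78 ± 0.15 (adjusted p = 0.0179) and lost its call when replicate 1 of corn oil at 8 h, or of either group at 24 h, was left out (adjusted p up to 0.0709). Plin3, a coat protein of droplets, went the other way at 0.92 ± 0.17 (adjusted p = 0.0101), from an effect of -0.80 to 0.12. These were the calls among 25 genes of lipid uptake and droplets, of which 9 were raised and 1 lowered at 8 h, against 1.28% and 2.86% of all genes. At 24 h 0 of the 25 and 0.297% of all genes were called, so the 0 does not set the list apart. G0s2, an inhibitor of that lipase, had the largest interaction of the list at -2.11 without passing the test (adjusted p = 0.0617); it was singled out after its value was seen. Of 25 genes of fatty acid and triglyceride synthesis only Lpin2, a phosphatidate phosphatase, was called, at -1.27 ± 0.19 (adjusted p = 0.0022), and 5 of the 25 were positive. The list does not hold every gene of this role. Gpat4, an acyltransferase gene of triglyceride synthesis outside the list, was also called lower in the interaction (adjusted p = 0.0063). Its effect was 1.024 at 8 h and 0.021 at 24 h, and the call held in all 12 fits without 1 array. Nceh1, a cholesterol ester hydrolase, fell from 8 h to 24 h in both treatments, with log2 differences of -1.42 in corn oil and -2.48 in DEHP. Its interaction was -1.06 ± 0.21 (adjusted p = 0.0213), which held in 6 of 12 fits without 1 array (adjusted p up to 0.0747).

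The remaining large negative values belonged to genes of varied roles. The monocarboxylate transporter gene Slc16a5 had -1.48, but its 2 probe sets disagreed (-1.48 and 0.30) and the call held in 7 of 12 fits without 1 array (adjusted p up to 0.0752). Rnf24, a RING finger gene, had -1.28, Scyl2, a pseudokinase gene of vesicle traffic, -1.19, Synj2, an inositol phosphatase gene, -1.09, and Fbf1, a centriole gene, -1.08, and these 4 calls held in all 12 fits. Not all their probe sets showed values of that size: they ranged from -1.28 to -0.51 for Rnf24, from -1.29 to -0.09 for Scyl2 and from -1.73 to -0.14 for Synj2. Sdc1, a heparan sulfate proteoglycan, had -1.16, a call that held in 5 of 12 (adjusted p up to 0.101). Srxn1, the sulfiredoxin that repairs oxidised peroxiredoxins, was the call among 19 genes of Nrf2 and oxidative stress defence, at -0.95 ± 0.19 (adjusted p = 0.0214), and held in 6 of 12 fits (adjusted p up to 0.0711), with its 4 probe sets from -1.04 to -0.15. Slc16a5, Sdc1 and Srxn1, like Gadd45b and Cyp3a25, were among the genes not called when replicate 2 of corn oil at 8 h was left out.

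The 2 h arrays, which are outside the contrast, had already shown part of this group. At 2 h 15 of the 33 genes were called higher and 0 lower, where 0.616% of all genes were called higher. They included Pdk4 (4.96), Gadd45b (2.33), Rab30 (2.00), Acot3 (1.5), Fbf1 (1.42), Rnf24 (1.16), Acot4 (0.92) and St3gal5 (0.88). Others were not called then: Cyp2b10 had 0.97 (adjusted p = 0.19), Lpin2 0.09 and Srxn1 -0.01. At 72 h 2 of the 33 were called higher, Cyp2b10 (1.47) and Lpin2 (0.58), where 1.13% of all genes were.

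**Figure D3:**
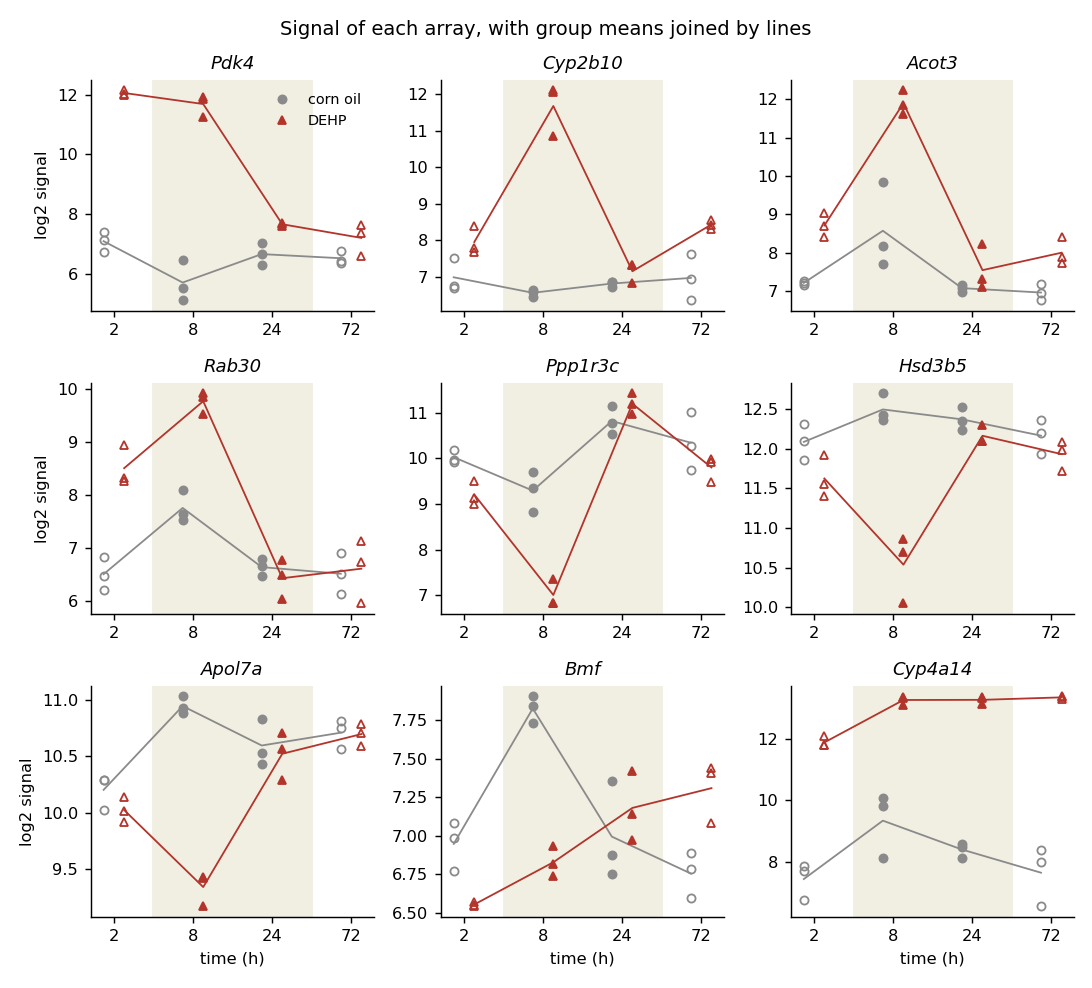
Log2 signal of each array (grey circles corn oil, red triangles DEHP, 3 per group) at 2, 8, 24 and 72 h for 9 genes, with lines through group means and the compared times shaded. Pdk4, Cyp2b10, Acot3 and Rab30 are high in DEHP at 8 h, Ppp1r3c, Hsd3b5 and Apol7a are low in it, Bmf is high in corn oil at 8 h, and Cyp4a14 stays high in DEHP.

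The genes with a positive interaction were below corn oil under DEHP at 8 h. Of the 52, 50 were called lower at 8 h (all but Haus4 and Med28), with a median effect of -0.73. Over all genes 2.86% were called lower at that time. At 24 h the median was 0.12 and 42 effects were positive, against 8905 of 18194 over all genes. Haus4 was then called higher and Nat8f1 lower (0.253% and 0.044% of all genes). The groups did not overlap at 8 h in 51 (18.6% of all genes) and at 24 h in 18 of them (13.8% of all genes). The DEHP group alone changed between the times in 27, corn oil alone in 12, both in 9, and neither in 4. The DEHP mean was higher at 24 h than at 8 h in 50 of the 52 and the corn oil mean lower in 39. In 37 the means moved in opposite directions. Over all genes the DEHP difference was positive in 8700 of 18194 and the corn oil difference in 7369. The interaction is the DEHP difference minus the corn oil difference, so choosing genes by a positive one favours these directions. At 2 h 0 of the 52 were called, against 0.83% of all genes, so the 0 does not set them apart. At 72 h 8 were called, 3 higher and 5 lower (4.18% of all genes passed the test at that time, 1.13% upward and 3.05% downward).

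Ppp1r3c, the subunit that brings protein phosphatase 1 to glycogen, had the largest positive interaction. Its signals were 9.71, 9.35 and 8.83 in corn oil and 6.82, 6.84 and 7.35 in DEHP at 8 h, and 11.15, 10.78 and 10.53 in corn oil and 11.19, 10.99 and 11.43 in DEHP at 24 h. DEHP was below corn oil at 8 h without overlap, and the groups overlapped at 24 h, each with its highest mean of the 4 times. The effect went from -2.29 to 0.38, an interaction of 2.67 ± 0.36 (95% confidence interval 1.93 to 3.41, adjusted p = 0.000523). Both groups moved: corn oil rose by 1.53 and DEHP by 4.20. It was the only call among 21 genes of glycogen and glucose metabolism, of which 4 were lowered and 1 raised at 8 h (2.86% and 1.28% of all genes), and its 2 probe sets gave 0.80 and 2.67.

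For Hsd3b5 and Apol7a DEHP at 8 h was the low group. Hsd3b5, a steroid dehydrogenase typical of male mouse liver, had 12.36, 12.70 and 12.43 in corn oil and 10.05, 10.70 and 10.87 in DEHP at 8 h, against 12.35, 12.52 and 12.23 in corn oil and 12.30, 12.09 and 12.10 in DEHP at 24 h, where the groups overlapped. Its interaction was 1.75 ± 0.25 (adjusted p = 0.000787), and corn oil differed by -0.12 between the times (adjusted p = 0.88). It was the call among 11 male-biased genes, whose median was 0.03. Apol7a, a gene of the apolipoprotein L family, had 10.93, 10.88 and 11.03 in corn oil and 9.17, 9.43 and 9.43 in DEHP at 8 h, against 10.43, 10.53 and 10.83, and 10.57, 10.71 and 10.29, at 24 h. Its groups were apart at 8 h and mixed at 24 h, with an interaction of 1.53 ± 0.17 (adjusted p = 3.39e-05). Its corn oil arrays did not overlap between the times, with a log2 difference of -0.35 that did not pass the test (adjusted p = 0.142).

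Most of the further large positive values were less secure. Tcea3, a transcription elongation factor (1.19 ± 0.15), and Gpr155, a membrane protein gene (1.10 ± 0.14), both with an adjusted p of 0.000327, held in all 12 fits. Cited2, a coregulator that binds the acetyltransferase p300, had 1.59 ± 0.32 (adjusted p = 0.0222) and lost its call when any of 5 arrays was left out: replicate 2 of corn oil at either time, replicate 3 of DEHP at either time, or replicate 1 of DEHP at 24 h (adjusted p up to 0.0763). Enho, which encodes the secreted peptide adropin, had 1.43 ± 0.32 (adjusted p = 0.0474), held in 3 of 12 fits (adjusted p up to 0.156), and had another of its 4 probe sets at -0.09. Its effect was -1.54 at 8 h and -0.11 at 24 h, and at 72 h it was called lower again at -1.14. Nxpe2 (1.21) held in 3 fits, with its second probe set at -0.10, Tedc2 (1.05) in 4, and Tjp3, a tight junction gene (1.02), in 7, and replicate 2 of corn oil at 8 h was among those that each of these and Enho needed. Tubb5, a beta tubulin (0.94 ± 0.21, adjusted p = 0.0427), was the call among 10 tubulins, of which 9 were positive, and held in 1 fit (adjusted p up to 0.134), with its other probe set at 0.29.

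In 12 genes with a positive interaction it was the corn oil group at 8 h that stood apart. They were Bmf, Clcn2, Dclk3, Fn3k, Grtp1, Oxld1, Rpain, Tppp, Wif1, 1810058I24Rik, 4930581F22Rik and D130020L05Rik. Bmf, which promotes apoptosis, had 7.84, 7.90 and 7.73 in corn oil at 8 h, above all other arrays of the 4 groups: DEHP had 6.93, 6.74 and 6.81 at 8 h, corn oil 6.88, 7.35 and 6.75 at 24 h, and DEHP 7.14, 6.97 and 7.42 at 24 h. Its interaction was 1.18 ± 0.19 (adjusted p = 0.00356), with corn oil falling by 0.83 on the log2 scale and DEHP differing by 0.35 (adjusted p = 0.17), and its 3 probe sets ranged from 0.03 to 1.18. Oxld1 (1.00 ± 0.16, adjusted p = 0.00258) and Rpain (0.87), which brings replication protein A into the nucleus, had the same order of groups. In both, unlike Bmf, the DEHP group was also called higher at 24 h than at 8 h. The differences were 0.40 (adjusted p = 0.031) and 0.37 (adjusted p = 0.021), and Clcn2 had 0.29 (adjusted p = 0.045). The probe sets of Oxld1 ranged from 0.67 to 1.00, those of Rpain from 0.08 to 0.87 and those of Fn3k from 0.04 to 0.74. Dclk3, a kinase gene (1.02, adjusted p = 0.0418), held its call in 2 of 12 fits (adjusted p up to 0.161). In 11 of the 12 genes corn oil at 8 h was the highest of the 4 corn oil means. That it lay above the 24 h mean followed from how these genes were chosen, and the share over all genes was not computed. Without corn oil 8 h replicate 2, 7 of the 12 were called (Bmf, Clcn2, Dclk3, Fn3k, Oxld1, Rpain and 4930581F22Rik), and that array was the highest of its group in 5 of the 12. With the Actb difference as a covariate 5 of the 12 were called, against 30 of the 57 with DEHP 8 h apart.

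**Figure D4:**
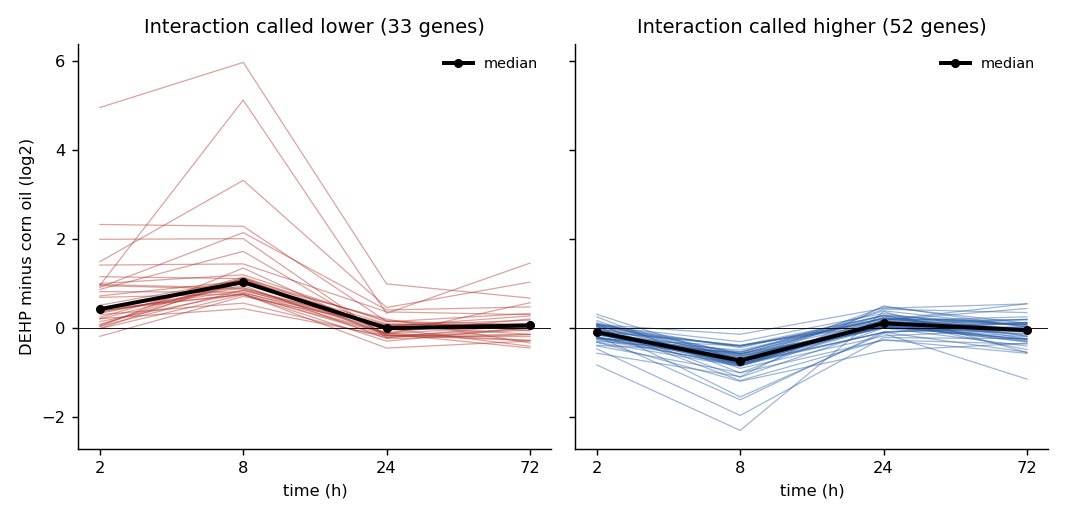
Effect of DEHP (DEHP minus corn oil, log2) at 2, 8, 24 and 72 h for the 33 genes called lower (left) and the 52 called higher (right) in the interaction, 1 thin line per gene and the median in black. The median of the first set is 0.43, 1.04, 0.00 and 0.07 at the 4 times, and that of the second -0.08, -0.73, 0.12 and -0.04.

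Several well known PPARα targets had a large effect at both times and no call in the interaction. Cyp4a14, a fatty acid omega-hydroxylase, had 9.81, 10.08 and 8.11 in corn oil and 13.35, 13.08 and 13.33 in DEHP at 8 h, and 8.58, 8.48 and 8.13 in corn oil and 13.12, 13.31 and 13.35 in DEHP at 24 h. The groups were far apart at both times and the DEHP arrays at the same level. Its effects were 3.92 and 4.86, and the interaction of 0.94 had a 95% confidence interval of -0.22 to 2.10 (adjusted p = 0.68). Ehhadh, an enzyme of peroxisomal oxidation, had effects of 2.79 and 2.61 and an interaction of -0.19 (-0.80 to 0.42). Acot1, a cytosolic thioesterase, had -0.36 (-1.61 to 0.90), an interval wide enough to hold a change past 2-fold in the direction of a loss. Vnn1, a pantetheinase, had effects of 2.30 and 3.46 while both its groups fell, with log2 differences of -2.22 in corn oil and -1.07 in DEHP, and its interaction of 1.16 did not pass the test (adjusted p = 0.318).

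Genes called at both times numbered 34, all with the same sign, which is 4.52% of the 8 h calls and 63% of the 24 h calls. Among them, 1 (Nat8f1) was also called in the interaction. They included Cyp4a31, Retsat, Acot2, Aldh3a2, Acaa1b, Hadha, Hadhb and Acadm, the last 3 of mitochondrial oxidation, and 27 of the 34 were called at 72 h as well. Of 22 genes of mitochondrial fatty acid oxidation, 10 were raised at 8 h (1.28% of all genes) and 9 at 24 h (0.253%). In the interaction 0 were called (0.467% of all genes), and 14 were positive. The 3 genes raised at 24 h without a call at 8 h, Eci1 (0.40 and 1.11), Acadvl (0.23 and 0.45) and Etfb (0.08 and 0.44), had interactions of 0.71, 0.21 and 0.36, none of which passed the test, so a later rise was not shown for them. Slc22a5, a carnitine transporter gene of the same list, had the lowest value, at -1.14 (adjusted p = 0.060). Of 8 genes of omega-hydroxylation 0 were called in the interaction. The receptor gene Ppara had -0.18 (-0.80 to 0.44).

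For most genes called at a single time the interaction was not called, so a difference between the times was not shown for them. Of the 752 genes called at 8 h, 11% were called in the interaction, and of the 54 called at 24 h, 52 were not. The 8 h calls kept their sign at 24 h in 513 of 752, and the effect was smaller in 722, which the choice of genes on the 8 h arrays favours. Among the raised 8 h calls the median effect went from 0.63 to 0.14, and among the lowered ones from -0.51 to -0.06.

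**Figure D5:**
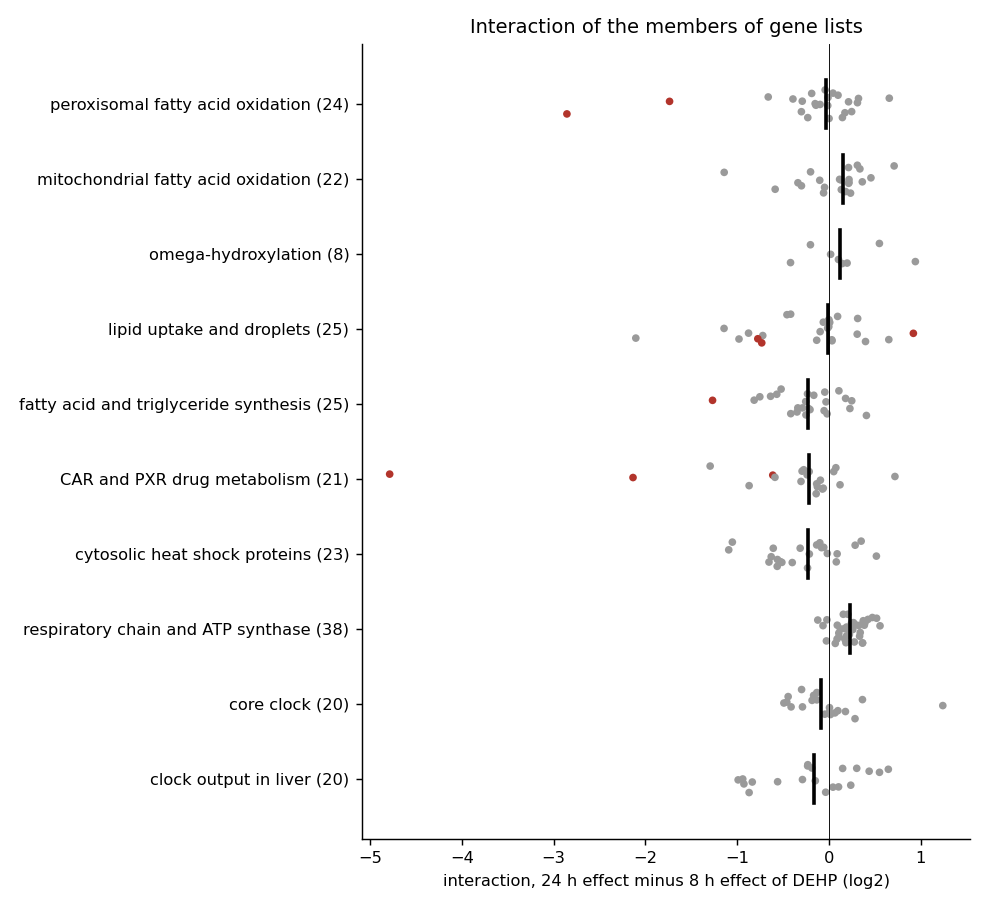
Interaction (24 h effect minus 8 h effect of DEHP, log2) of each member of 10 gene lists, with list sizes in brackets; red points are called, grey points are not, and black bars are medians. The CAR and PXR list has 3 called members below zero, and the core clock has none called.

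Clock genes changed between the times in both treatments. Of 20 core clock genes, 3 were called higher and 6 lower at 24 h in corn oil (0.78% and 1.79% of all genes). In DEHP 4 were called higher and 7 lower (2.87% and 2.68% of all genes). In the interaction 0 were called, against 0.467% of all genes, so the 0 does not set this list or those below apart. Dbp, a transcription factor with a strong daily rhythm, had 11.64, 12.08 and 11.86 in corn oil and 11.20, 11.45 and 11.05 in DEHP at 8 h, and 7.45, 6.92 and 9.0, and 6.31, 7.62 and 6.10, at 24 h. It fell in both, with log2 differences of -4.07 in corn oil and -4.56 in DEHP, and its interaction of -0.49 had an interval of -2.17 to 1.18. Arntl, the partner of Clock, rose by 1.45 and 1.73, and Per3 fell in both, with -1.48 and -1.47. Of 20 genes of clock output in liver 2 were called higher and 6 lower in corn oil, against the same shares of all genes. In DEHP 4 were called higher and 12 lower, and 0 were called in the interaction. Of 25 endoplasmic reticulum folding genes, 8 were called higher at 24 h in each treatment (0.78% of all genes in corn oil and 2.87% in DEHP). Again 0 were called in the interaction.

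Most genes of the heat shock list lay on the negative side without passing the test. Of 23 cytosolic and mitochondrial chaperone genes 0 were called in the interaction (0.467% of all genes) and 5 were positive. Their median was -0.23, which stayed between -0.31 and -0.20 in the fits without 1 array. At 8 h 6 were called higher (1.28% of all genes) and at 24 h 2 (0.253%), the mitochondrial Hspd1 and Hspe1. Hspa8, the constitutive cytosolic chaperone, lay at 12.24 or below in the corn oil arrays and at 12.99, 12.56 and 12.94 in DEHP at 8 h, and at 24 h all 6 arrays lay between 12.41 and 12.51. Its interaction was -0.61 ± 0.14 (adjusted p = 0.0592). Hspb6, a small heat shock protein gene outside the list, went the other way at 0.65, also without passing the test (adjusted p = 0.0718). Its effect was 0.00 at 8 h and 0.65 at 24 h, where it was called.

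Several lists shifted together by small amounts with 0 calls in the interaction, where 0.467% of all genes were called. Respiratory chain and ATP synthase genes had a median of 0.23 with 34 of 38 positive, cytosolic ribosomal proteins 0.19 with 32 of 34, and proteasome subunits 0.14 with 26 of 31, while ribosome biogenesis genes had -0.21 with 9 of 32 positive. Over all genes 10129 of 18194 were positive. Of the ribosome biogenesis genes 11 were called lower at 24 h than at 8 h in DEHP (2.68% of all genes) and 0 in corn oil (1.79%). The list was lower at 24 h in both treatments: its median difference was -0.33 in DEHP and -0.17 in corn oil. Of the 32 genes, 2 were positive in DEHP and 3 in corn oil. Members of such lists tend to vary together from array to array, and no list was tested. Genes of cell growth and division, Myc (-0.46), Ccnd1 (-0.66) and Mki67 (-0.03), were not called, nor was any of 35 genes of DNA replication or 27 of mitosis.

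Markers of other cell types held 0 called genes in the interaction, where 0.467% of all genes were called. Macrophage (12 genes), endothelial (12), stellate (14), bile duct (5), lymphocyte (10), neutrophil (9), red blood cell (5) and adipocyte (6) markers had medians between -0.06 and 0.10. Markers of exocrine pancreas (10), an organ next to the liver, had a median of 0.29 with all 10 positive. The pancreas list means ran from 6.938 to 7.695 in the corn oil arrays at 8 h. In the other compared groups they reached at most 7.023. Without corn oil 8 h replicate 2 the medians of macrophage, endothelial and pancreas markers were 0.36, 0.32 and 0.47. These were their highest medians over the fits that left out a single array. The lowest were -0.16, -0.08 and -0.04, so the direction of each depended on single arrays. The part of these shifts in any result was not tested.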

How the data were processed

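Per the submitters' processing notes, the authors summarised the arrays with RMA, and the deposited table holds log2 signals; the version and software are not given in the sources used here. The table of 45101 probe sets ranged from 2.84 to 14.55 and held all 24 arrays. Probe sets were joined to symbols through the supplied annotation: 34958 had 1 gene, 932 several and 9211 no row. For the 9012 genes with several probe sets, the one brightest on average across the 24 arrays was taken.

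The model was fitted with limma 3.58.1 in R 4.3.3: 1 fit of 8 group means over 24 arrays (16 residual and 6.21 prior degrees of freedom), a contrast for the interaction, and Benjamini-Hochberg adjustment over 18194 genes; an adjusted p under 0.05 was called. The procedure was tested on simulated data. Lists (46) were described by counts and medians only. The named genes were the 15 largest called values of each sign, unnamed and predicted genes passed over, up to 4 called members of each list or its largest member, and fixed genes; others are named where a count turns on them. Members, lists and the contrast were chosen with earlier results of these data known. In these lists Cyp4a10 and some other members are not analysed here.

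Groups came from the sample labels. Deviations from the group means were correlated for 18 pairs of arrays with the same replicate number. Of these pairs 5 correlated above 0.1 (range -0.42 to 0.27), and the main fit did not use the numbers as pairs. With 3 arrays per group these values cannot exclude a pairing or a shared batch. The number 14 stands in the titles of a pair of 8 h arrays, replicate 3 of corn oil and replicate 2 of DEHP. Their difference had an SD of 0.28 and that of the closest pair in the study 0.18, so both were kept. Alternatives changed 1 choice at a time, except that the variance trend and the robust fit were changed together. An alternative that left out a pair of corn oil arrays was added after seeing the data.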

Additional observations from a re-analysis of the deposited data

Results flagged for a closer look

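For the genes named below, the test of the difference between the 8 h and 24 h effects passed the threshold in the fit of all arrays. Some calls held in few of the 12 fits that left out 1 array: Tubb5 in 1, Dclk3 in 2, and Enho and Nxpe2 in 3. The 24 h effect minus the 8 h effect was, in log2 units, -4.98 for Pdk4, -4.79 for Cyp2b10, -2.86 for Acot3, -2.22 for Rab30, -2.14 for Gadd45b, -1.89 for St3gal5 and -1.74 for Acot4. It was -1.48 for Slc16a5, -1.28 for Rnf24, -1.27 for Lpin2, -1.19 for Scyl2, -1.16 for Sdc1, -1.09 for Synj2, -1.08 for Fbf1 and -1.06 for Nceh1. Smaller negative values were -0.95 for Srxn1, -0.78 for Fitm2, -0.73 for Pnpla2 and -0.61 for Cyp3a25. On the positive side it was 2.67 for Ppp1r3c, 1.75 for Hsd3b5, 1.59 for Cited2, 1.53 for Apol7a, 1.43 for Enho, 1.21 for Nxpe2, 1.19 for Tcea3, 1.18 for Bmf and 1.10 for Gpr155. It was 1.05 for Tedc2, 1.02 for Tjp3, 1.02 for Dclk3, 1.00 for Oxld1, 0.94 for Tubb5 and 0.92 for Plin3.

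Probe sets that carry no single gene were outside the gene comparison. Of 10143 such probe sets, 11 were called in the same test, 2 of them higher and 9 lower.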

How the results depend on the processing

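Direction did not depend on the setting for the called genes: all 85 kept their sign under all 27 alternatives in which they were tested (filtering on the 40th percentile of signal left 80 of them). For the 34 named called genes, 162 of 918 values fell short of the threshold and 0 reversed. The reversed values belonged to uncalled genes.

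The count of 85 (52 higher, 33 lower) went to 266 with array weights (209 and 57), 134 with quantile normalization (58 lower), 30 at an adjusted p under 0.01 (14 and 16), 49 with the 12 arrays of 8 h and 24 h alone (31 and 18) and 41 with the Actb difference as a covariate (19 higher). Without 1 array it lay between 42 and 113 (higher 19 to 83, lower 21 to 37). The replicate block gave 92 calls and the random block 75. By deviations from the group means, 9 of 24 arrays correlated best with their own number, which neither shows nor excludes a pairing. Median centring gave 75.

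Genes for which only DEHP moved (55) numbered 168 with array weights, 94 with quantile normalization, 23 at an adjusted p under 0.01, 34 with 12 arrays and 32 with the covariate, and 31 to 68 without 1 array. Genes for which only corn oil moved (12) numbered 48 under array weights, 4 at an adjusted p under 0.01, 6 with an added 1.5-fold threshold, 2 with the covariate, 7 without a pair of corn oil arrays (8 h replicate 2 and 72 h replicate 1, left out after seeing the data), and 3 to 22 without 1 array. Genes for which both moved (14) numbered 27 with array weights, 22 with quantile normalization, 2 at an adjusted p under 0.01, 7 with 1.5-fold, 6 with 12 arrays, 9 without both arrays numbered 14, 6 with the covariate, and 3 to 15 without 1 array. Genes for which neither moved (4) numbered 7 with the mean of all probe sets, 9 with a variance trend and robust fit, 23 with array weights, 2 with median centring, 1 at an adjusted p under 0.01, 20 with 1.5-fold, 0 with 12 arrays, 1 with the covariate, 1 without that pair, and 0 to 8 without 1 array.

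Signs turned for uncalled genes. Rxra was -0.023 and Per2 -0.0088 with the mean of probe sets, Cd36 0.023 with median centring and 0.0099 with quantile normalization, and Fcgr2b -0.058 without the arrays numbered 14. With the covariate Ppara was 0.0070, Cpt1a 0.031 and Cd36 0.29, and without the pair of corn oil arrays Ppara was 0.0092 and Cd36 0.45. Over the fits without 1 array or that pair, the interaction ranged from -0.81 to 0.22 for Acot1, -0.37 to 0.015 for Ehhadh, -0.81 to 0.093 for Myc, -0.14 to 0.081 for Mki67, -0.99 to 0.15 for Cish and -0.39 to 0.042 for Ppara. It ranged from -0.16 to 0.12 for Cpt1a, -0.96 to 0.11 for Dbp, -0.63 to 0.45 for Cd36, -0.012 to 0.53 for Lyz2, -0.034 to 0.68 for Fcgr2b, -0.0054 to 0.12 for Per2 and -0.14 to 0.31 for Krt19. The cause of these changes was not tested.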
